A study of Sus scrofa with 12 samples.

Results

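The 10 genes described here, ADIPOQ, PLIN1, CIDEC, CIDEA, LEP, PLIN4, FABP4, LIPE, PPARG and CEBPA, are commonly used to recognise adipocytes. They were found by symbol among 35682 gene identifiers counted in pig heart, of which 15623 had a symbol, and all 10 were present. They were chosen by name, with earlier CPM and fold change values of the border zone against remote zone contrast known, so their differences between regions are given as a description. For the description they were divided into 5 adipocyte-restricted members (ADIPOQ, PLIN1, CIDEC, CIDEA, LEP) and 5 members that cardiomyocytes, endothelium, macrophages or other cells of the heart also use (PLIN4, FABP4, LIPE, PPARG, CEBPA). The division follows common use of the genes and not these data, in which CIDEC and CIDEA had 9 to 21 and 20 to 43 counts in the 5 libraries with 0 ADIPOQ counts.

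RNA was sequenced from the left ventricle of 6 female Yorkshire pigs, and each animal gave 1 border zone library and 1 remote zone library. The left anterior descending artery of each animal had been occluded with a balloon for 60 min and then reperfused. From day 9 all animals received immunosuppression with daily prednisolone (20 mg), mycophenolate (500 mg) and tacrolimus (0.75 mg/kg), and at thoracotomy on day 14 they were given either human vascular organoids held by fibrin sealant or the sealant alone. Hearts were taken 4 weeks later, the border zone as the tissue next to the infarct and the remote zone from the posterior wall. Which animal had which treatment was not used here, so each region mixes both. Border and remote tissue differed in wall as well as in distance from the infarct, and these cannot be told apart.

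White adipocytes store triglyceride in a large droplet and release it as fatty acids when the body needs fuel. Perilipins coat the droplet and CIDE proteins fuse droplets, hormone-sensitive lipase (LIPE) takes part in their breakdown, and FABP4 carries fatty acids in the cell. PPARG and CEBPA are the transcription factors that drive adipocyte differentiation, and adiponectin (ADIPOQ) and leptin (LEP) are the hormones that adipocytes secrete. In the heart, adipocytes lie mainly in the epicardial fat and along the vessels, and fat cells can also replace muscle in old infarct scars. Several of these genes have other users in the heart: capillary endothelium is rich in FABP4, cardiomyocytes carry PLIN4 and LIPE, and myeloid cells use CEBPA and PPARG.

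The 250 bases before the RefSeq start of 3 members are shown. They belong to the restricted members with the largest CPM in a single border zone library (ADIPOQ and PLIN1) and to the shared member with separate border and remote ranges (CEBPA). All are from Sscrofa11.1 and are written 5′ to 3′ on the strand of the gene, with motif matches in capitals. The motifs searched on both strands were AGGTCA (a nuclear receptor half-site), the PPAR-RXR direct repeat (this half-site occurring 2 times, 1 base apart), TTGCNNCAA (a C/EBP core), CCAAT and TATAAA, and any direct repeat also counts as a half-site match.
ADIPOQ, chr13:124633656-124633905, plus strand, a CCAAT box in capitals: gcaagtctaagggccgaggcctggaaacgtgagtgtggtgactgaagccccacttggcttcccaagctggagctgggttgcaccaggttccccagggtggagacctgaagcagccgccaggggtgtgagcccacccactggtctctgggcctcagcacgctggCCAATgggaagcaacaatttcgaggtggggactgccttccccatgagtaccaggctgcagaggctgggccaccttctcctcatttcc
PLIN1, chr7:55250798-55251047, minus strand, a TATAAA match on the opposite strand in capitals: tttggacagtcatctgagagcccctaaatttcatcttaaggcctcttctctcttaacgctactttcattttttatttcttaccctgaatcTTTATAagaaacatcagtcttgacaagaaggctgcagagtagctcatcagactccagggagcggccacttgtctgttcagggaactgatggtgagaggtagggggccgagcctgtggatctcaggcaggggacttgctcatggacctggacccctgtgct
CEBPA, chr6:43085885-43086134, minus strand, a half-site in capitals: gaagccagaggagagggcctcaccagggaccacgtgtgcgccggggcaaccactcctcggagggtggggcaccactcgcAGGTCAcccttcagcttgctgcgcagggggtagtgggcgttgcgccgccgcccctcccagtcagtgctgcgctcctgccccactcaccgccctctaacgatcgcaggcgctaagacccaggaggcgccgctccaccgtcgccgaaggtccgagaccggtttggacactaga
Of the 9 members searched, all but FABP4, 0 had the direct repeat or the C/EBP core in this window, which 0.0256% and 1.90% of 19531 windows of the same length held. CCAAT was found in 2 members (ADIPOQ, LIPE) and in 31.9% of all windows, AGGTCA in 2 members (CIDEA, CEBPA) and in 12.2%, and TATAAA in PLIN1 and in 9.76%. A match here is a run of letters and not a shown binding site.

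Libraries held from 15130210 to 31618680 counts, and levels are given as CPM, the counts of a gene scaled to the size of its library by TMM. The border zone library of animal 3622 stood apart: it had counts on 28024 genes, against 16932 to 20148 in the others, and on 6127 (52.3%) of the 11724 genes that had 0 counts everywhere else. The border zone library of animal 1022 had the least cardiomyocyte RNA, with a summed level of the 12 cardiomyocyte markers found of 13483 CPM against at least 47872 CPM in the others. All 12 cardiomyocyte markers had counts in every library. In these bulk samples, fewer cells of a type and less RNA per cell cannot be told apart.

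The adipocyte-restricted members were few in reads and very uneven among animals. ADIPOQ, the gene of the adipocyte hormone adiponectin (ENSSSCG00000039103, chr13:124633906-124646237), had 81, 0, 910, 36, 407 and 28 counts in the border zone of animals 1022, 1322, 1323, 1623, 1922 and 3622. In the remote zone of the same animals it had 0, 0, 29, 3, 0 and 0 counts. The border zone level was thus above the remote zone level in 5 animals and at 0 in both regions of animal 1322.

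In CPM, ADIPOQ reached 26.8 in the border zone of animal 1323 (95% exact Poisson interval 25.1 to 28.6, which covers counting error only) and 19.8 in that of animal 1922 (17.9 to 21.8). It was 2.68, 1.24 and 1.71 CPM in the border zone of animals 1022, 1623 and 3622. The border zone libraries of animals 1323 and 1922 held 87.4% of the summed ADIPOQ level of all 12 libraries. In the border zone of animal 1322, which had 0 counts, the upper limit of the same interval was 0.180 CPM. The fitted log2 fold change was 5.37 ± 1.38 (SE, n = 6 libraries per region), and the regions overlapped because of animal 1322.

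PLIN1, the perilipin that coats the droplets of adipocytes (ENSSSCG00000001844, chr7:55237517-55250797), followed the same order at the top. Its border zone levels were 1.72, 0.243, 10.4, 0.378, 5.63 and 0.611 CPM in the animals in the order above, and its remote zone levels lay between 0.201 and 0.594 CPM with a median of 0.340. The border zone was higher in 4 of 6 animals, and animals 1322 and 1623 were lower there. Both large values were again those of animals 1323 and 1922, which held 75.4% of the summed level. The log2 fold change was 3.04 ± 0.85 (SE). PLIN1 lies over a lncRNA on the opposite strand with which it shares 0 exon bases.

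PLIN1 and ADIPOQ kept a similar ratio in most libraries with 28 or more ADIPOQ counts. PLIN1 counts were 0.390 of ADIPOQ counts in the border zone of animal 1323, 0.285 in animal 1922, 0.306 in animal 1623, 0.357 in animal 3622 and 0.642 in animal 1022. In the remote zone of animal 1323, which had 29 ADIPOQ counts, the ratio was 0.241. Elsewhere PLIN1 had a few counts without ADIPOQ: in the remote zone of animals 1022 and 1322 it had 15 and 12 counts beside 0 of ADIPOQ. Across the 12 libraries, after centring each region, log2 CPM of both genes correlated with Pearson's r of 0.76 and Spearman's rho of 0.65, a description over points that share animals in pairs.

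LEP, the gene of leptin (ENSSSCG00000040464, chr18:20106867-20124071), was at the edge of detection. It had 12, 3 and 2 counts in the border zone of animals 1323, 1623 and 1922 and 0 counts in the other 9 libraries. Taking 3 counts as what the remote zone as a whole could hide, the pooled border zone counts gave a ratio of 5.13. Without the border zone library of animal 1323, an alternative chosen after the data were seen, the ratio was 1.95. These ratios leave out the counting error of the border zone counts and the spread between animals, so they are not lower bounds. LEP was under the filter on low counts and was not tested. Of its summed level, 81.4% was in the border zone libraries of animals 1323 and 1922.

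Both CIDE genes differed from this pattern. CIDEC, also known as FSP27, which enlarges lipid droplets (ENSSSCG00000011557, chr13:66141836-66149801), had counts in all 12 libraries, from 0.828 to 4.10 CPM in the border zone (median 1.56) and from 0.468 to 1.40 CPM in the remote zone (median 0.765). Its highest value was in the border zone of animal 3622, the library that stood apart, and not in animal 1323 (2.27 CPM) or 1922 (2.23 CPM). The border zone was higher in 4 of 6 animals, with a log2 fold change of 1.08 ± 0.47 (SE). CIDEC shares 159 exon bases with a lncRNA on the opposite strand, and the libraries carry no strand, so reads there could belong to either.

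CIDEA, the droplet protein typical of brown fat (ENSSSCG00000060225, chr6:97253074-97268355), had between 0.446 and 3.09 CPM in the border zone (median 1.20) and between 1.19 and 2.87 CPM in the remote zone (median 1.49). It was higher in the border zone only in animals 1323 and 1922, the animals with the largest ADIPOQ levels, and lower in the other 4. The log2 fold change was -0.07 ± 0.43 (SE). It was 0.25 when scaled by library totals, which also moved the median of all genes from 0.04 to 0.32. The share of the summed level in the border zone of animals 1323 and 1922 was 28.6% for CIDEA and 27.4% for CIDEC, against 75.4% to 87.4% for ADIPOQ, PLIN1 and LEP.

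**Figure D1:**
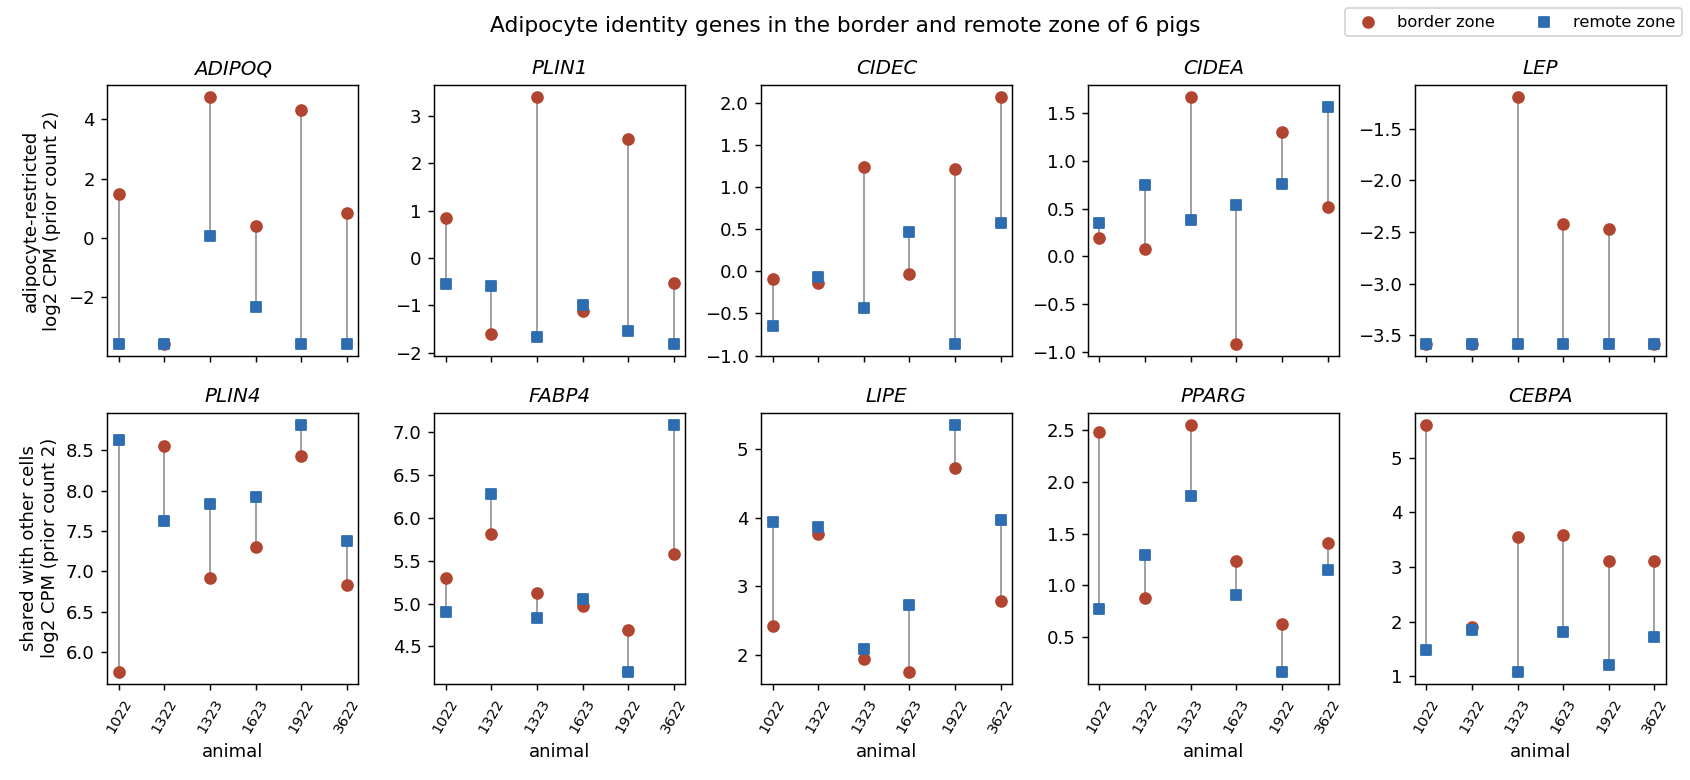
Log2 CPM (prior count 2) of the 10 members by animal, with the border zone as circles and the remote zone as squares joined by a line. The upper row holds the adipocyte-restricted members and the lower row the shared members. ADIPOQ and PLIN1 stand highest in the border zone of animals 1323 and 1922, LIPE is lower in the border zone of every animal, and CEBPA is higher in the border zone of every animal.

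Other adipocyte genes with low counts were examined for the same libraries. The list of further adipocyte genes had 17 genes, of which 16 had an identifier and 7 were under the filter (TRARG1, ACVR1C, LGALS12, ADRB3, PCK1, RETN and ADIG). TRARG1, an insulin-responsive vesicle protein of fat, had 106 counts in the border zone of animal 1323, 15 in that of animal 1922, 10 in that of animal 1022 and at most 4 in any other library. ACVR1C, a receptor for activin-like ligands, had 12 and 6 counts in the border zone of animals 1323 and 1922 and 0 elsewhere. PCK1, which makes the glycerol backbone for triglyceride, had 17 and 12 counts there, 6 in the remote zone of animal 1323 and 2 in the border zone of animal 1022. In the same way LGALS12, a galectin of lipid droplets, had 12 counts in the border zone of animal 1323 and at most 3 elsewhere.

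ADRB3, RETN and ADIG did not follow this pattern. ADRB3, the adrenergic receptor of fat, had 1 and 0 counts in the border zone of animals 1323 and 1922 and its most, 7, in that of animal 3622. All 18 counts of RETN, which encodes resistin, were in the border zone of animal 3622, and ADIG had 3 of its 4 counts there. The remote zone of animal 1323, the only remote library with more than 3 ADIPOQ counts, also held all 6 remote counts of PCK1 and both remote counts of LGALS12.

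**Figure D2:**
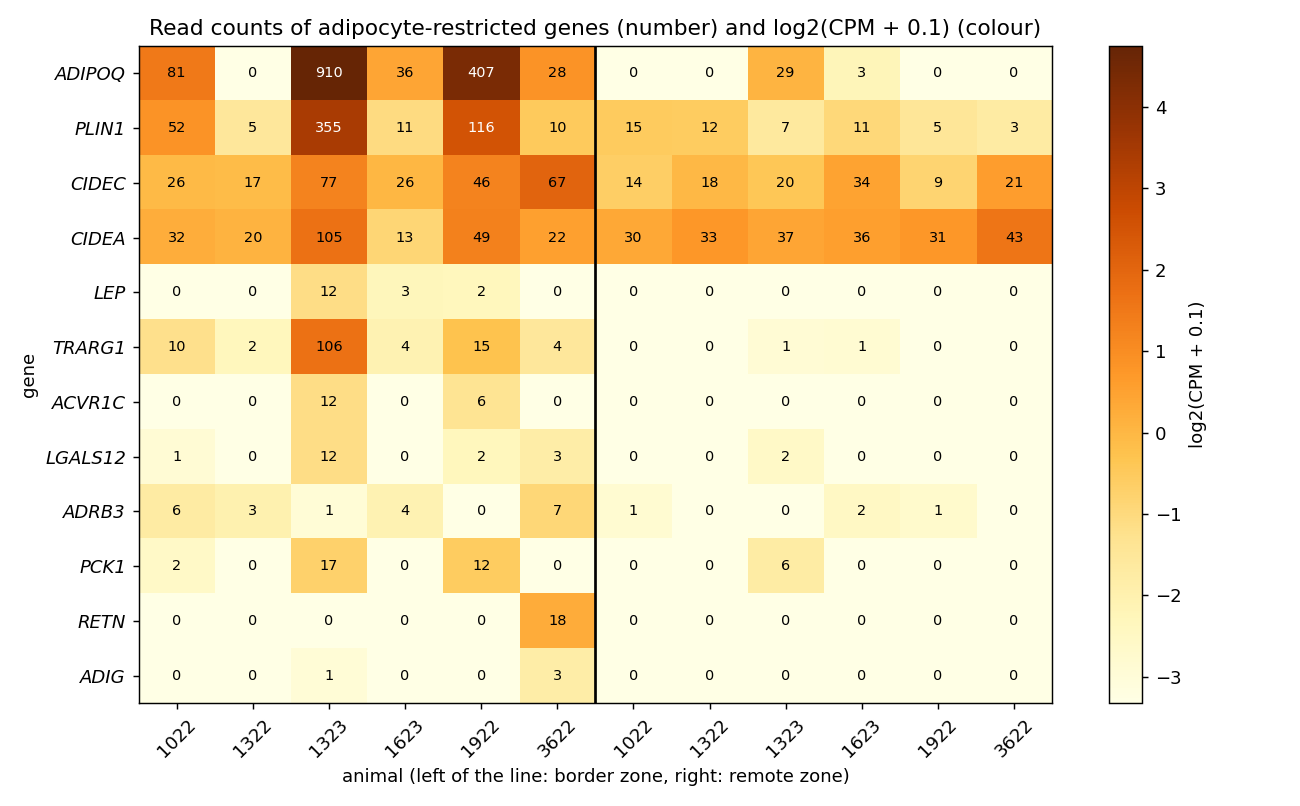
Read counts (numbers) and log2(CPM + 0.1) (colour) of the 5 adipocyte-restricted members and the 7 further adipocyte genes under the filter, in the 6 border zone libraries left of the line and the 6 remote zone libraries right of it. ADIPOQ, PLIN1, LEP, TRARG1, ACVR1C and PCK1 have their highest counts in the border zone of animal 1323, whereas RETN is found only in that of animal 3622.

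Epicardial and mesothelial markers were read beside these values, because fat and epicardium lie together. The summed level of the 9 markers found was 54.9 to 166 CPM in the border zone and 35.2 to 108 CPM in the remote zone, with between 0 and 3 of them at 0 counts in a library. Its highest value was in the border zone of animal 1323 (166 CPM) and its lowest border zone value in that of animal 1922 (54.9 CPM), the other library rich in ADIPOQ. KRT8 alone made up 125 of the 166 CPM, and had its lowest border zone value in animal 1922 (19.3 CPM). ALDH1A2 had its highest border zone values in animals 1323 and 1922 (26.1 and 25.5 CPM). In mean log2 CPM of the list, animal 1922 was also lowest of the border zone libraries (0.12). Of the 5 genes of this list tested, all had log2 fold changes above 0 (median 0.61). By edgeR 1, ALDH1A2, was past the adjusted threshold and higher in the border zone, against 2.06% of all genes, and 0 with the replicate block. Without animal 1323 the median was 0.11. UPK3B, a mesothelial surface gene, had 69 counts in the border zone of animal 1323 and at most 6 in any other library. Log2 CPM of ADIPOQ and the mean of these markers correlated with r of 0.27 and rho of 0.30 over the 12 libraries after centring each region, and with r of 0.01 without the border zone libraries of animals 1323 and 3622. The part of surface tissue in the ADIPOQ values was not tested.

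All 5 shared members had counts in every library, as did PLIN1, CIDEC and CIDEA but not ADIPOQ and LEP. PLIN4, a perilipin of small droplets and of muscle cells (ENSSSCG00000013512, chr2:74318624-74331920), had 54.1 to 375.0 CPM in the border zone (median 139) and 166 to 449 CPM in the remote zone (median 235). It was lower in the border zone in 5 of 6 animals, and its highest border zone value was that of animal 1322, in which ADIPOQ had 0 counts. The log2 fold change was -0.53 ± 0.43 (SE). PLIN4 shares 30 exon bases with HDGFL2 on the opposite strand.

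FABP4, the fatty acid binding protein of adipocytes and capillaries (ENSSSCG00000040681), had 25.8 to 56.0 CPM in the border zone (median 37.0) and 18.4 to 135 CPM in the remote zone (median 31.5). Its highest values were in the remote zone of animals 3622 (135 CPM) and 1322 (77.6 CPM), in both of which ADIPOQ had 0 counts, and it was lowest in both regions in animal 1922. The border zone was higher in 3 animals and lower in 3. The log2 fold change was -0.46 ± 0.42 (SE), while the border zone median was 1.18 times the remote zone median, so the sign depended on the measure.

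LIPE, hormone-sensitive lipase (ENSSSCG00000003018, chr6:49543671-49560126), had 3.30 to 26.3 CPM in the border zone (median 6.04) and 4.15 to 40.7 CPM in the remote zone (median 14.9). The border zone value was below the remote zone value in 6 of 6 animals. The difference between animals was larger than that between regions, since animal 1922 had the highest level in both regions. The log2 fold change was -0.72 ± 0.58 (SE).

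PPARG, the nuclear receptor that drives adipocyte differentiation (ENSSSCG00000011579, chr13:68301566-68433951), had 1.46 to 5.77 CPM in the border zone (median 2.42) and 1.04 to 3.56 CPM in the remote zone (median 1.97). Its highest border zone values were those of animals 1323 (5.77 CPM) and 1022 (5.52 CPM), and its lowest was that of animal 1922 (1.46 CPM). Animal 1922 thus joined high ADIPOQ to low PPARG. The border zone was higher in 5 of 6 animals, with a log2 fold change of 0.63 ± 0.40 (SE).

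CEBPA, the CCAAT/enhancer binding protein of adipocytes and of myeloid cells (ENSSSCG00000002866, chr6:43083200-43085884), had 48.3, 3.65, 11.7, 11.9, 8.59 and 8.50 CPM in the border zone of animals 1022, 1322, 1323, 1623, 1922 and 3622. Its remote zone levels were 2.69, 3.54, 2.04, 3.43, 2.24 and 3.21 CPM. Every border zone library was above every remote zone library, although that of animal 1322 (3.65 CPM) passed the highest remote zone library (3.54 CPM) by little. The log2 fold change was 2.44 ± 0.51 (SE), and 1.63 without the border zone library of animal 1022, which held 44.0% of the summed level.

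CEBPA was the only one of the 10 members whose regions did not overlap, and over all 13844 genes tested 1.99% had all border zone libraries above all remote zone libraries and 0.701% all below. Of the members, 9 of 10 passed the filter on low counts. In edgeR's quasi-likelihood test, adjusted by Benjamini-Hochberg, 1 of these 9, CEBPA, was past an adjusted p of 0.05, where 2.07% of all genes were, 2.06% higher and 0.0144% lower in the border zone. It was not past this threshold with the animal as a replicate block, without a filter, or without animal 1323, 1623, 1922 or 3622. ADIPOQ was past it in place of CEBPA with the replicate block, and also by DESeq2, with library totals and without animal 1322. PLIN1 was past it by DESeq2, with library totals and without animal 1322, but not with the block. Since the members were chosen with this contrast known, nothing is read from these counts.

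Per kilobase of RefSeq exon, which allows genes to be compared, FABP4 and PLIN4 headed the order of levels in both regions. The median over the 12 libraries was 39.0 CPM per kb for FABP4 and 30.8 for PLIN4, then 2.68 for LIPE, 1.34 for CEBPA, 1.01 for CIDEA and 0.764 for PPARG. CIDEC had 0.582, ADIPOQ 0.543, PLIN1 0.318 and LEP 0 CPM per kb. Neighbours in this order overlapped in their ranges over the libraries, apart from PLIN1 and LEP. PLIN4 was nonetheless above LIPE in 12 of 12 libraries, whereas FABP4 was above PLIN4 in 8 of 12 and ADIPOQ above PLIN1 in 6 of 12. The order below PLIN4 differed between regions. By the border zone medians it was CEBPA (3.78), ADIPOQ (2.23), LIPE (1.60), CIDEC (1.03), CIDEA (0.894), PPARG (0.839) and PLIN1 (0.740), and by the remote zone medians LIPE (3.95), CIDEA (1.11), CEBPA (1.10), PPARG (0.682), CIDEC (0.505), PLIN1 (0.216) and ADIPOQ (0). In the border zone of animal 1323 ADIPOQ had 27.2 CPM per kb, its highest value.

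Taken as means of log2 CPM, the restricted members were higher in the border zone of 5 animals, while the shared members had a mean nearer 0. Both groups hold genes of both directions: CEBPA was higher and LIPE lower in the border zone of 6 animals, and CIDEA was lower in 4. In animal 1623 PLIN1, CIDEC and CIDEA were lower in the border zone, and ADIPOQ and LEP (3 counts) were higher. The difference, border zone minus remote zone, of the restricted members was 1.37, -0.35, 3.02, 0.36, 3.13 and 1.23 in animals 1022, 1322, 1323, 1623, 1922 and 3622. That of the shared members was 0.37, -0.01, 0.48, 0.08, 0.37 and -0.32. Their means were 1.46 ± 1.40 (SD, n = 6) and 0.16 ± 0.30 (SD, n = 6). ADIPOQ weighed most in the restricted mean. Its median difference over the animals was 4.56, against 1.35 for PLIN1, 1.03 for CIDEC, 0.56 for LEP and -0.41 for CIDEA. ADIPOQ had counts in only 2 of 6 remote zone libraries, so the size of its differences depended on the prior count.

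Within an animal, the restricted members exceeded the shared members by 1.30 ± 1.23 (SD, n = 6) on the log2 scale, with a median of 1.28 and a range from -0.35 to 2.77, and were above 0 in 5 of 6 animals. The spread between animals was as large as the mean. Without animals 1323 and 1922 this value was 0.62 and that of the restricted members 0.65, an alternative chosen after the data were seen. Without animal 3622 or 1022, whose border zone libraries stood apart, the mean within animals was 1.25 and 1.36.

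**Figure D3:**
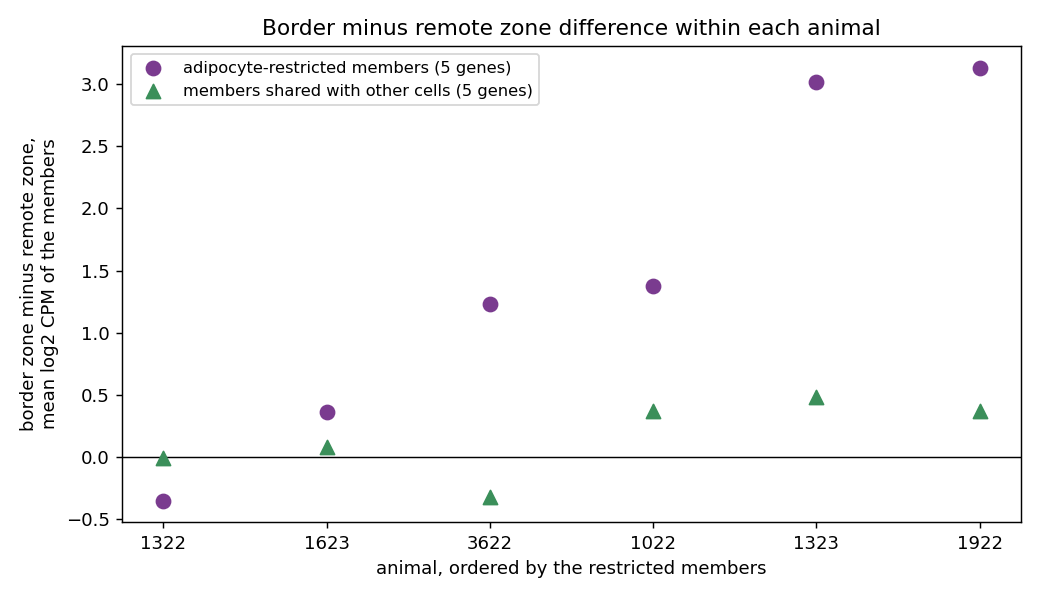
Border zone minus remote zone difference in mean log2 CPM of the 5 adipocyte-restricted members (circles) and the 5 shared members (triangles), for each animal, ordered by the restricted members. The restricted members span -0.35 to 3.13 and the shared members -0.32 to 0.48.

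Each shared member was set beside the markers of the cells that also use it, as mean log2 CPM of each list centred within regions over the 12 libraries. These correlations are descriptions over libraries that share animals in pairs and the same depth scaling. FABP4 and the 14 endothelial markers had r of 0.73 and rho of 0.64, and r of 0.73 without the 2 libraries farthest from the median. The summed level of the endothelial list was 627 to 1081 CPM in the border zone and 478 to 1102 CPM in the remote zone, with 0 of its genes at 0 counts. Its median log2 fold change was 0.12, 0 of 14 genes were past the threshold by edgeR or DESeq2 or under an unadjusted p of 0.05 by edgeR, and the remote zone libraries of animals 1322 and 3622 were highest in FABP4 and in the mean of this list.

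PLIN4 and the 12 cardiomyocyte markers had r of 0.73 and rho of 0.43, and r of 0.23 without the border zone libraries of animals 1022 and 1322. This relation therefore rested on those libraries. PLIN4 was more steadily opposite to the 13 macrophage and myeloid markers, with r of -0.88, rho of -0.73 and r of -0.74 without the same libraries. It was also opposite to PPARG, with r of -0.81 and rho of -0.79.

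CEBPA and the macrophage and myeloid markers had r of 0.90 and rho of 0.65, and r of 0.50 without the border zone libraries of animals 1022 and 1322. The likeness was not particular to this list, since CEBPA and the fibroblast and matrix markers had r of 0.94 and rho of 0.49 (r of 0.21 without those libraries), and CEBPA and the cardiomyocyte markers r of -0.92 and rho of -0.56 (r of -0.32). The summed level of the myeloid list was 152 to 1841 CPM in the border zone and 137 to 291 CPM in the remote zone, with 0 of its genes at 0 counts. Its 1841 CPM were in the border zone of animal 1022, in which CEBPA was at 48.3 CPM and ADIPOQ at 2.68 CPM. All 13 markers of the list had log2 fold changes above 0 (median 1.46), and 13 had an unadjusted p under 0.05, against 24.7% of all genes. By the adjusted p, 1, LYZ, was past the threshold by edgeR, 0 with the replicate block and 5 by DESeq2. Over all genes, edgeR called 2.07% and DESeq2 10.3%. Without animal 1022 the median was 0.60 and 0 were past the threshold. CEBPA and ADIPOQ had r of 0.29 and rho of 0.03. The part of myeloid cells in the CEBPA values was not tested.

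PPARG had its steadiest likeness with the epicardial and mesothelial markers, with r of 0.66, rho of 0.79 and r of 0.67 without the border zone libraries of animals 1323 and 3622. LIPE had r between -0.46 and 0.28 with the 6 marker lists, and was itself opposite to PPARG (r of -0.74, rho of -0.66). The median log2 fold change of the 13 fibroblast and matrix genes tested was 2.93. Of these genes, 10 were past the threshold and higher in the border zone, against 2.06% of all genes. With the replicate block 2 were (POSTN and SFRP2). Without animal 1323, 1623, 1922 or 3622 the calls fell to 0 while the median stayed between 2.95 and 3.21, and without animal 1022 there were 9 calls and a median of 1.81. Its correlation with ADIPOQ was 0.34, with rho of 0.18 and r of -0.03 without the border zone libraries of animals 1022 and 1322. With the Schwann cell markers, whose median log2 fold change was 0.91 and 0.48 without animal 1022, ADIPOQ had r of 0.47, and r of 0.20 without the same libraries.

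**Figure D4:**
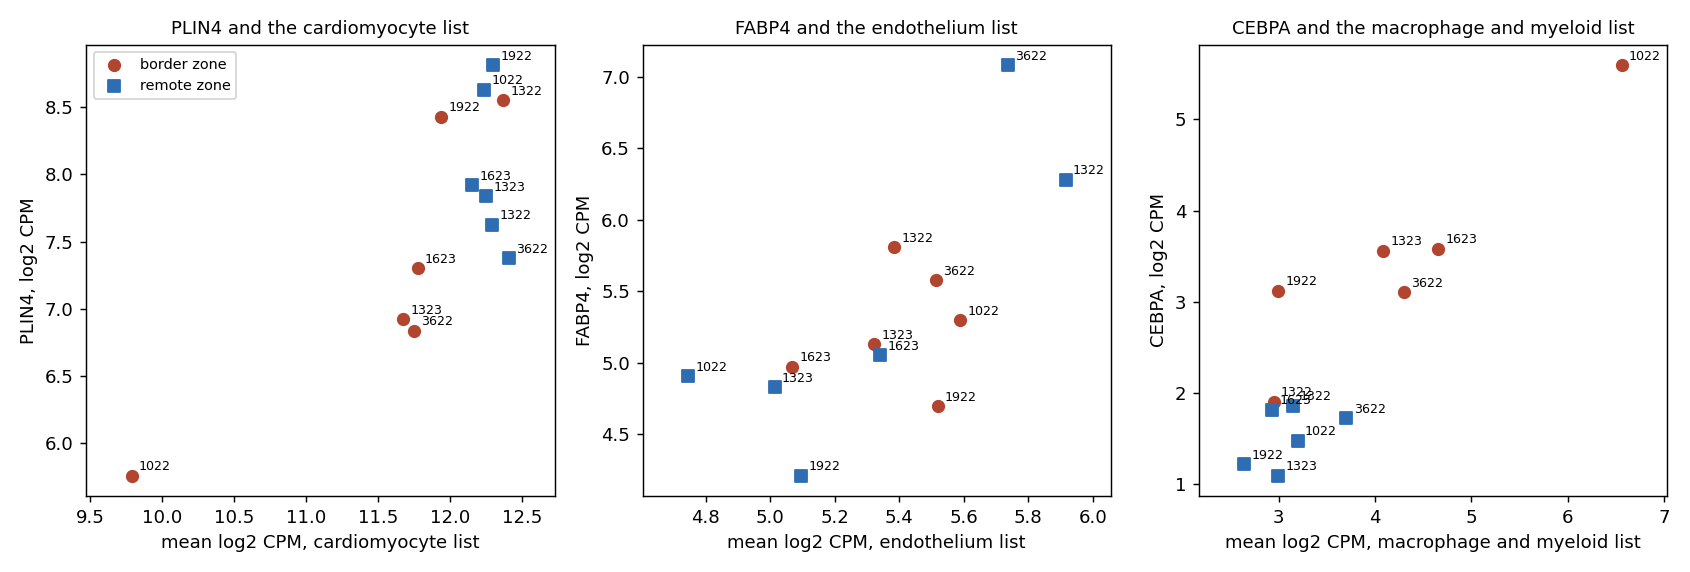
Log2 CPM of PLIN4, FABP4 and CEBPA against the mean log2 CPM of the cardiomyocyte, endothelium and macrophage and myeloid lists, with 1 point for each of the 12 libraries labelled by animal. The border zone library of animal 1022 lies lowest for PLIN4 and highest for CEBPA, at the far end of both lists, and the remote zone libraries of animals 1322 and 3622 lie highest for FABP4.

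Among the other genes of fat storage, 1 of 60 tested was past the threshold between regions. Of 72 genes on 6 lists, 70 had an identifier (CD36 and AQP7 had none) and 60 were tested. By edgeR's quasi-likelihood test 1 was higher in the border zone at an adjusted p under 0.05 and 0 were lower, where 2.06% and 0.0144% of all genes were. At an unadjusted p under 0.05 the counts were 15 and 3, against 17% and 7.78% of all genes. The Wald test of DESeq2 gave 9 higher and 1 lower of the 60, and called 8.48% higher and 1.85% lower of the 16688 genes it tested. For the counts of single lists above and below, the shares of all genes in either direction were 24.7% at an unadjusted p under 0.05 and 10.3% by DESeq2. The median log2 fold change was -0.13 over the 60 genes and 0.04 over all 13844 genes tested, and 25 of the 60 and 7385 of all genes were above 0. With library totals as the scaling the median of all genes moved to 0.32, and 13 of the 60 were called higher and 0 lower, against 11.2% and 0.0433% of all genes.

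SLC7A10, a neutral amino acid transporter used as a surface marker of white adipocytes, was the gene called. It had 2.34 to 10.3 CPM in the border zone (median 4.95) and 1.02 to 3.21 CPM in the remote zone (median 1.38), and was higher in the border zone in 6 of 6 animals, although the regions overlapped. It rose with a log2 fold change of 1.88 ± 0.39 (SE, adjusted p = 0.0338 by edgeR). The call was lost without the border zone library of animal 3622 (adjusted p = 0.0573), which had its highest level, and without both libraries of animal 1022, 1323, 1623, 1922 or 3622 (adjusted p from 0.0598 to 0.139), while the log2 fold change stayed between 1.67 and 1.95. The calls over all genes fell with these animals too, to between 0 and 163 of the 287. Its levels did not follow ADIPOQ in animal 1323, where the border zone had 4.86 CPM.

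SLC7A10 is also a neighbour of CEBPA. It lies on chr6:43002427-43017605 on the same strand, 65.6 kb from CEBPA, with 0 annotated genes between them.

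The list of further adipocyte genes had 9 genes tested, 4 above 0 and 5 below, with a median log2 fold change of -0.10. By edgeR 1 passed (SLC7A10), against 3 at an unadjusted p under 0.05. DESeq2 called 4 of 11 higher (FASN, SCD, SLC7A10 and TRARG1). Without a filter the median over 16 genes of the list was 1.90, and that over all genes was 0.75. SCD, the desaturase of stearate, had the largest value of this list, 2.04 ± 0.68 (SE, adjusted p = 0.105), and did not pass the edgeR test. It had 35.2 and 27.9 CPM in the border zone of animals 1022 and 1323 and 1.22 to 9.37 CPM in the other border zone libraries. For the 7 genes under the filter, the counts are given above. TRARG1 was called higher by the Wald test of DESeq2 and by edgeR without a filter.

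The fatty acid and triglyceride synthesis list had 13 genes tested, 8 above 0 and 5 below, with a median of 0.40. This median was 0.21 with the replicate block and 0.05 without animal 1323. By edgeR 0 passed, against 5 at an unadjusted p under 0.05 and 3 by DESeq2 (ELOVL6, FASN and SCD). ELOVL6, which lengthens palmitate, had a log2 fold change of 1.79 ± 0.45 (SE, adjusted p = 0.0509). At the other end were DGAT2, which completes triglyceride, with -0.88 ± 0.41 (adjusted p = 0.202), and AGPAT2, an enzyme of phosphatidic acid synthesis, with -0.75 ± 0.42 (adjusted p = 0.282).

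The lipid droplet and lipolysis list had 12 genes tested, 4 above 0 and 8 below, with a median of -0.20. By edgeR 0 passed, against 3 at an unadjusted p under 0.05 and 1 by DESeq2, which called FITM1 lower. FITM1, a muscle protein that partitions fat into droplets, had -1.01 ± 0.37 (SE, adjusted p = 0.127), and PLIN5, the perilipin of oxidative muscle, had -0.77 ± 0.50 (SE, adjusted p = 0.353). Both were lower in the border zone in 6 of 6 animals. LIPA, the lysosomal lipase, was named after its values were seen, as the only tested gene of the 6 lists whose regions did not overlap. Over all genes tested, 1.99% had all border zone libraries above all remote zone libraries. LIPA had 20.6 to 102 CPM in the border zone and 15.4 to 20.3 CPM in the remote zone, with a log2 fold change of 1.02 ± 0.37 (SE, adjusted p = 0.126). Its 102 CPM were in the border zone of animal 1022, and the other border zone libraries had 20.6 to 35.8 CPM.

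The fatty acid supply list, with the lipase, transporters and binding proteins that bring fatty acids to cells, had 8 genes tested, 1 above 0 and 7 below, with a median of -0.45. None passed by edgeR or DESeq2, and 0 had an unadjusted p under 0.05 by edgeR. The cardiomyocyte list had 12 of 12 genes below 0 and a median of -0.53, with 0 past the adjusted threshold by edgeR, 3 under an unadjusted p of 0.05 and 1 (TNNI3) called lower by DESeq2. Without animal 1022 the median of this list was -0.30. The summed level of the cardiomyocyte list was 13483 to 82544 CPM in the border zone and 68765 to 113559 CPM in the remote zone, and its part in the values of PLIN4, LIPE, PLIN5, FITM1 and the supply list was not tested.

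The adipogenic transcription list had 14 genes tested, 7 above 0 and 7 below, with a median of 0.17. This median was 0.02 without animal 1022 and -0.005 without its border zone library alone. By edgeR 0 passed, against 7 at an unadjusted p under 0.05 and 3 by DESeq2 (EBF1, KLF5 and ZNF423). KLF5, a factor that acts before PPARG in adipocyte differentiation and also in smooth muscle, had 2.18 to 12.1 CPM in the border zone (median 3.43) and 0.156 to 3.13 CPM in the remote zone (median 0.607). Its log2 fold change was 2.36 ± 0.64 (SE, adjusted p = 0.0624), and the fit with the replicate block gave 2.65 (adjusted p = 0.0410). It was higher in the border zone in 6 of 6 animals.

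The list of adipokines and their receptors had 9 genes tested, 4 above 0 and 5 below, with a median of -0.10. By edgeR 0 passed, against 2 at an unadjusted p under 0.05 and 2 by DESeq2 (RARRES2, which encodes chemerin, and SFRP5). The receptors of adiponectin, ADIPOR1 and ADIPOR2, named for their ligand ADIPOQ, had medians of 67.3 and 84.9 CPM in the border zone and 79.4 and 116 CPM in the remote zone. Their log2 fold changes were -0.25 ± 0.14 (SE, adjusted p = 0.271) and -0.47 ± 0.23 (SE, adjusted p = 0.227).

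**Figure D5:**
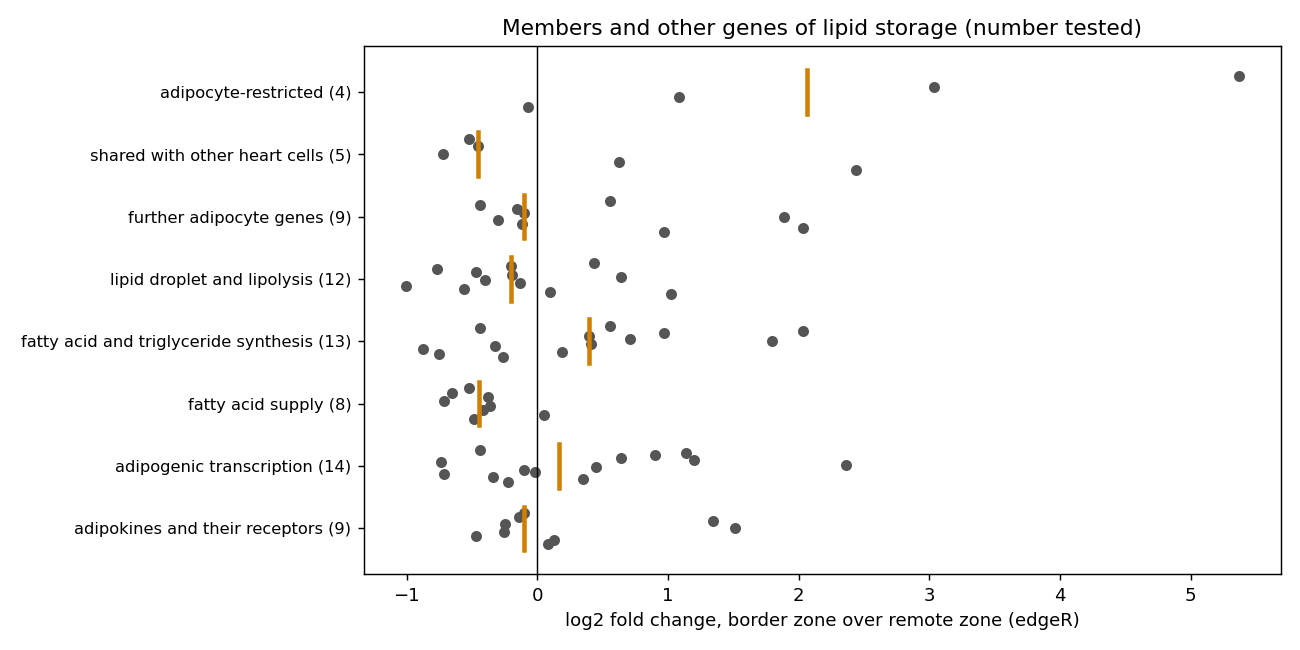
Log2 fold change, border zone over remote zone, of each tested gene of the restricted members, the shared members and the 6 further lists, with the number tested in brackets and the median as a bar. The restricted members run from -0.07 to 5.37 and the shared members from -0.72 to 2.44, whereas the medians of the 6 further lists lie between -0.45 and 0.40.

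The genes whose pattern was most like the restricted members were found by Pearson's correlation with the mean log2 CPM of ADIPOQ, PLIN1, CIDEC and CIDEA, centred within regions, over 12 libraries and 11716 candidate genes. ROBO2, a guidance receptor, was closest (r of 0.92, rho of 0.82, and r of 0.79 without the border zone libraries of animals 1322 and 1323). It had 3.83 and 3.69 CPM in the border zone of animals 1323 and 1922 and 0.633 to 1.51 CPM in the other border zone libraries. In the remote zone it had 1.30 to 2.73 CPM, and its log2 fold change was 0.10 ± 0.41 (SE). The next 9 were CNST, EPHB6, EPHB2, CDK17, ETNK2, GIT1, P2RX1, FEZ1 and SAE1, with r from 0.80 to 0.83. Without those libraries r over these 9 was between 0.36 and 0.76, so part of the likeness rested on them.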

How the data were processed

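The authors aligned the reads of poly(A)-enriched, nondirectional libraries to Sscrofa11.1 with STAR and deposited raw counts per gene made with featureCounts; the options for multi-mapped reads are not given in the sources used here. The main test used edgeR 4.0.16 in R 4.3.3 (filterByExpr, TMM, robust quasi-likelihood test, Benjamini-Hochberg over 13844 genes, region as the term). DESeq2 1.42.0, pandas 2.3.3 and Python 3.11.15 were also used. Log2 CPM used a prior count of 2. Standard errors were computed as log2 fold change over the root of F. Depth was 15130210 to 31618680 counts per library, and exact Poisson intervals cover counting error only.

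The 10 members and all lists were chosen with earlier results of these data known. Genes named from the 6 lists are those with an adjusted p under 0.05 and the 4 largest and 4 smallest log2 fold changes; others are named with the reason. The 10 genes most like the restricted members were taken by correlation. Marker lists covered cardiomyocyte, endothelium, fibroblast, macrophage, epicardium and Schwann cell. Coordinates and sequences are from RefSeq on Sscrofa11.1, and all 10 members matched. The upstream window of 1 member was not searched and is not reported here.

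Libraries with the same number are from the same animal, which pairs them. Across genes, their deviations from the mean of the region had a correlation of 0.35 on average (-0.03 to 0.57; over 0.1 in 4 of 6 animals). Alternatives were the replicate block, DESeq2, its size factors, library totals, other filters, other prior counts, and leaving out libraries or animals. The fits were checked on simulated data with the same dispersion for all genes and no animal effect. This check does not cover the pairing or the libraries that stood apart. Treatment groups were not analysed here.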

Additional observations from a re-analysis of the deposited data

Results flagged for a closer look

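Of 42 groups of 6 libraries compared (21 measures in 2 regions), 2 held a library far from the others by Dixon's criterion at the 95% level, and chance sets apart about 1 in 20 groups. ADIPOQ in the remote zone was highest in animal 1323, at 0.054 log2 CPM, with the next library at -2.34. Both regions of animal 1323 thus held the most ADIPOQ of their region. CIDEA in the remote zone was highest in animal 3622, at 1.56 log2 CPM, with the next library at 0.76. The remote zone of animal 3622 had 0 counts of ADIPOQ and of LEP and 3 of PLIN1.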

How the results depend on the processing

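The number of genes past the threshold was 287 and depended on the setting. It was 41 with the animal as a replicate block, 1724 by the DESeq2 Wald test, 1551 with library totals, 139 without a filter, 149 with at least 10 counts in every library and 156 without the border zone library of animal 3622. Leaving out 1 animal gave 0 to 519 genes, with 0 when animal 1623 or 3622 was left out (2662 and 2448 at an unadjusted p under 0.05 by edgeR), 3 for animal 1323, 15 for 1922, 163 for 1022 and 519 for 1322. The block ended the call of CEBPA (log2 fold change 1.98) and added those of ADIPOQ (5.72) and KLF5 (2.65), and changed no other call among the tested members and the named genes of the 6 fat storage lists. Among the marker lists it ended the calls of LYZ and ALDH1A2 and left 2 of 10 fibroblast and matrix calls.

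Over the settings in which it was tested the log2 fold change ranged from 4.74 to 5.72 for ADIPOQ, from 1.99 to 3.43 for PLIN1, from 0.70 to 1.38 for CIDEC, from 1.61 to 2.84 for CEBPA and from 0.34 to 0.97 for PPARG. It stayed below 0 for PLIN4, LIPE and FABP4 (-0.90 to -0.20, -0.86 to -0.48 and -0.64 to -0.02) and crossed 0 for CIDEA (-0.53 to 0.25). With at least 10 counts in every library ADIPOQ, PLIN1 and CIDEC were not tested, and without animal 1323, whose border zone held 50.3% of its level, ADIPOQ was under the filter and has no value. The restricted minus shared difference was 1.69 and 1.05 with prior counts of 0.5 and 5, and 1.01 to 1.63 with 1 animal left out. Low counts limited LEP, ADIPOQ in the remote zone and the 7 further adipocyte genes under the filter; 6 libraries held at most 3 ADIPOQ counts.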
